A study of Mus musculus with 16 samples.

Results

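Tcf21, Prrx1, Twist2, Ddr2 and Sulf1 are 5 genes grouped here as epicardial and fibroblast regulators. They were picked by symbol from 5921 genes measured by RNA-seq in ventricles of mouse embryos at E11.5. All 5 were found, and 4 of them passed a filter on low values that left 2620 genes for testing. Twist2, at a mean of 0.813 TPM (transcript abundance scaled for gene length and library size) over the 16 libraries, did not pass it. The tissue came from 2 lines of mice in which Atf4, the gene of a stress-responsive transcription factor, was conditionally knocked out (cKO) with the Xmlc2-Cre transgene, whose Cre recombinase is made in cardiomyocytes. One line has exons 2 and 3 of Atf4 between loxP sites, here called the exon 2-3 line, and the other has exon 2 alone. Each line gave 4 control and 4 cKO libraries, described as biological replicates, and the exon 2-3 line was batch 1 and the exon 2 line batch 2. Line and batch therefore cannot be told apart, and each cKO was compared with the controls of its own line. It is not given whether control embryos had the floxed allele, the Cre transgene or neither, and the genotype label reads the same, C57BL/6 WT, on cKO and control alike.

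The epicardium is the mesothelial sheet that covers the heart. Some of its cells leave the sheet, move into the muscle wall and become fibroblasts and the mural cells of vessels. Tcf21 encodes a basic helix-loop-helix (bHLH) factor of the epicardium and of the fibroblasts that descend from it. Prrx1 encodes a paired-type homeodomain factor, and Twist2 another bHLH factor, both known from mesenchyme of limb, skin and face. Ddr2 encodes a receptor tyrosine kinase that is activated by fibrillar collagen. Sulf1 encodes a secreted enzyme that removes sulfate groups from heparan sulfate outside the cell, which alters how growth factors bind there. None of the 5 is regarded as a cardiomyocyte gene, and Xmlc2-Cre is meant to delete Atf4 in cardiomyocytes.

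RefSeq promoters on GRCm38.p6, each running from 250 bases before to 50 bases after the start of a gene, were matched for 4 of the 5 genes. Motifs of 3 kinds were searched on both strands: CANNTG, the E-box that bHLH factors such as Tcf21 and Twist2 bind, TAATTA, which paired-type homeodomain factors such as Prrx1 bind, and TGATGNAA, the core of the element that ATF4 binds with C/EBP partners. No matches overlapped in the windows printed. The promoter of Tcf21 is printed because this gene was called both in the exon 2-3 line and in the difference between lines, that of Prrx1 because it holds TAATTA, and that of Ddr2 because it holds an E-box. Capitals mark the matches, and each sequence reads 5′ to 3′ on the strand of its gene, here the minus strand.
Tcf21, chr10:22820094-22820393: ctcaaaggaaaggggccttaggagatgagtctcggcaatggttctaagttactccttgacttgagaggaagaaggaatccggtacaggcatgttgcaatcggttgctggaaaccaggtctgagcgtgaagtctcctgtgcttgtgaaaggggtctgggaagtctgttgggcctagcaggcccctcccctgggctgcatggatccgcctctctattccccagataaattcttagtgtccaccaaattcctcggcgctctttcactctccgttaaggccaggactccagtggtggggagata
Prrx1, chr1:163313601-163313900: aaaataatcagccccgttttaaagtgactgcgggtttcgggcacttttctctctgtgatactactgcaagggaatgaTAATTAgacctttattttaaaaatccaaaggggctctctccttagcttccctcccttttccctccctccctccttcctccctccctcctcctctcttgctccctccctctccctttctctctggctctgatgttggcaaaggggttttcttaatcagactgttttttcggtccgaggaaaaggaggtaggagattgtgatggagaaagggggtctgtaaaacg
Ddr2, chr1:170088895-170089194: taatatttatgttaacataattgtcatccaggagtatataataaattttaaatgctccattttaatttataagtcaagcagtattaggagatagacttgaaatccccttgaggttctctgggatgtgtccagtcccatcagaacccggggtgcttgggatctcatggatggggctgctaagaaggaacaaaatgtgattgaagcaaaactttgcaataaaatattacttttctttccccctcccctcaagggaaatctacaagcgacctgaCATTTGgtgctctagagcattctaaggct
The Tcf21 window held none of the 3 motifs, and so did that of Twist2 (chr1:91801211-91801510). An E-box occurred in 72.3% of 32851 promoter windows of this length, TAATTA in 5.29% and TGATGNAA in 3.97%. The start used for the Prrx1 window lies 1495 bases inside the gene as the table gives it, and that for Ddr2 lies 21892 bases inside. Absence of a match says only that these letters are not in the window.

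Across the tested genes, log2(TPM + 1) of 2 libraries of the same group correlated at a Pearson's r of 0.982 to 0.992. TPM values hold no depth, and how many reads stand behind a level is unknown. In the exon 2-3 line 176 genes (6.72%) passed an adjusted p of 0.05 in limma, of which 109 (4.16% of the genes tested) were higher and 67 (2.56%) lower in the cKO. Centring each library on its median changed this to 142 of 343. In the exon 2 line 2 genes passed (0.0763%), and the difference between the lines' cKO effects passed for 62 genes (2.37%). Of 20 cardiomyocyte markers 6 were among the rows used, and their sum lay between 12590 and 18570 TPM, which shows heart muscle but does not tell ventricle from atrium. Blood content varied most in the exon 2-3 cKO, where the sum of 5 erythroid genes was 1542, 5917, 1513 and 11300 TPM in replicates 1 to 4, against 2997 to 4556 TPM in its controls. Changes below were therefore also computed without cKO replicate 4. In whole ventricles a change in the number of cells of a type and a change in RNA per cell cannot be told apart.

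Tcf21 (chromosome 10, 22817263 to 22820143, minus strand, GRCm38) rose in the exon 2-3 cKO. Its level was 36.3, 31.2, 34.6 and 39.6 TPM in the 4 controls and 62.4, 58.9, 56.7 and 53.6 TPM in the 4 cKO libraries. All 4 cKO libraries lay above all 4 controls, as they did for 9.24% of the genes tested. The means were 35.4 ± 3.49 and 57.9 ± 3.71 TPM (SD, n = 4 each), a ratio of 1.63. The log2 fold change was 0.70 (SE 0.078, 95% interval 0.52 to 0.87, limma adjusted p 0.000969), which ranked Tcf21 13th by p among the 2620 genes. Without cKO replicate 4, the library richest in erythroid RNA, it was 0.73.

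The exon 2 line gave a different picture for Tcf21. Its controls held 47.4, 39.5, 42.0 and 38.2 TPM and its cKO libraries 39.3, 42.8, 45.7 and 41.0 TPM. The groups overlapped, as did those of all but 1.83% of the genes tested, and the log2 fold change was 0.02 (95% interval -0.15 to 0.18, limma adjusted p 0.999). The effect in the exon 2-3 line exceeded that in the exon 2 line by 0.68 on the log2 scale (SE 0.11, 95% interval 0.44 to 0.92, limma adjusted p 0.00255). Gm10824, a transcript on the other strand that spans the whole of Tcf21, had between 0.180 and 0.578 TPM. Use of the strand in counting is not given, so reads of the pair could be mixed, though Gm10824 stood far below Tcf21.

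**Figure D1:**
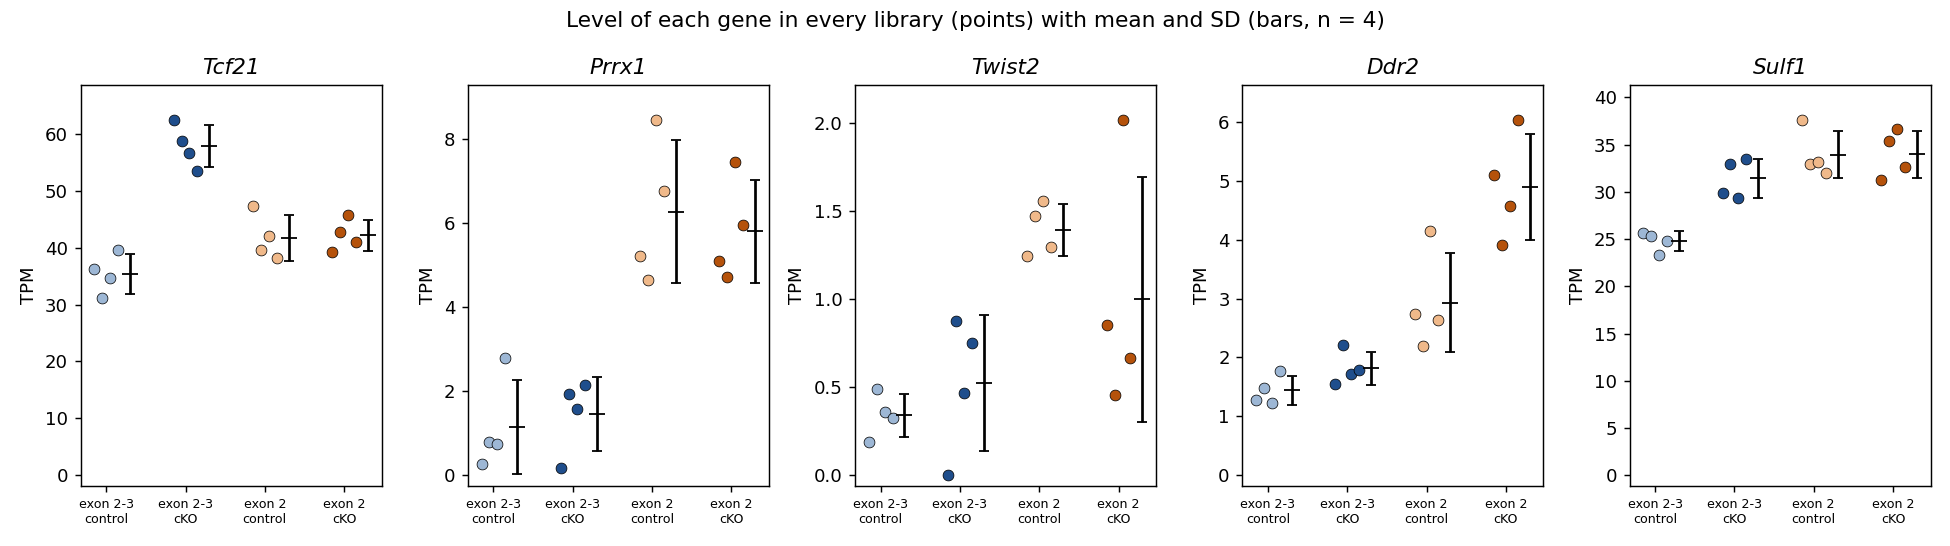
Level of each gene in TPM (vertical axis, a separate linear scale for each gene) in the 16 libraries, by group, with 1 point per library and the mean and SD of 4 libraries beside them. For Tcf21 the exon 2-3 cKO libraries sit between 53.6 and 62.4 TPM, above all other libraries, and for Sulf1 between 29.4 and 33.5 TPM, above the controls of the same line.

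Prrx1 (chromosome 1, 163245119 to 163315145, minus strand) was low and uneven in the exon 2-3 line. Its controls held 0.262, 0.799, 0.733 and 2.79 TPM, and its cKO libraries 0.179, 1.93, 1.58 and 2.13 TPM. The lowest library of the line was a cKO and the highest a control. The SD of the controls was 1.12 TPM around a mean of 1.15 TPM. The log2 fold change of 0.23 had a 95% interval from -0.62 to 1.07 (limma adjusted p 0.783), and it lay between 0.012 and 0.55 when 1 library was left out.

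Prrx1 stood higher in the exon 2 line, with an SD of 1.70 TPM around 6.26 TPM in the controls. It held 5.21, 4.64, 8.43 and 6.76 TPM in the controls and 5.09, 4.70, 7.45 and 5.95 TPM in the cKO. The groups overlapped, with a log2 fold change of -0.08 (95% interval -0.47 to 0.30, limma adjusted p 0.999). The difference of the 2 effects was 0.31 (95% interval -0.65 to 1.27, limma adjusted p 0.819).

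Twist2 (chromosome 1, 91801461 to 91848034, plus strand) was the lowest of the 5 genes. In the exon 2-3 line it held 0.186, 0.489, 0.356 and 0.327 TPM in controls, and 0.875, 0.467 and 0.750 TPM in cKO replicates 2 to 4, while cKO replicate 1 is listed at 0. That same library had the lowest Prrx1 of all 16. In the exon 2 line the controls held 1.25, 1.47, 1.56 and 1.30 TPM and the cKO libraries 0.855, 0.457, 2.01 and 0.665 TPM. The cKO replicates 1, 2 and 4 lay below every control, and replicate 3 lay above every control. An exact permutation test of log2(TPM + 1), two-sided, gave p = 0.543 in the exon 2-3 line and p = 0.200 in the exon 2 line, where 70 regroupings allow no p under 0.0286. Without cKO replicate 3 of the exon 2 line the difference went from -0.32 to -0.53, with p = 0.0286 in the exact test. That is the smallest p this refit allowed, and dropping the only cKO library above the controls fixed it. In the refits of this line that each dropped 1 library, p of the exact test reached 0.4.

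Ddr2 (chromosome 1, 169972307 to 170110836, minus strand), the collagen receptor, held 1.28, 1.48, 1.22 and 1.77 TPM in the exon 2-3 controls and 1.55, 2.22, 1.71 and 1.79 TPM in the cKO. These groups overlapped (log2 fold change 0.21, 95% interval -0.06 to 0.47, limma adjusted p 0.352). In the exon 2 line it held 2.74, 2.19, 4.15 and 2.64 TPM in controls and 5.10, 3.91, 4.57 and 6.03 TPM in cKO. Control replicate 3 lay above cKO replicate 2, and no other pair crossed. The ratio of means was 1.67 and the log2 fold change 0.60 (SE 0.16, 95% interval 0.24 to 0.95). Its unadjusted p of 0.00373 ranked 12th among 2620 genes, and its limma adjusted p was 0.703. No member passed the adjusted threshold in the exon 2 line by limma, and Ddr2 was the 1 member with an unadjusted p under 0.05, which 3.21% of genes had. The 2 effects differed by -0.39 (95% interval -0.82 to 0.05, limma adjusted p 0.406).

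Ddr2 shares 90 bases at its end with 3110045C21Rik on the other strand, which held 2.58 to 4.52 TPM, a level above that of Ddr2 in most libraries. Reads in the shared stretch could belong to either. The log2 fold change of 3110045C21Rik in the exon 2 line was 0.03 (limma adjusted p 0.999).

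Among genes for collagen receptors, the fibrillar collagens they bind and the enzymes that modify collagen, 6 of 27 were among the rows used and 5 were tested. None of the 5 encodes a receptor: they are fibrillar chains and the enzyme genes P4ha1 and P4ha2. Of the 5, 3 rose and none fell in the exon 2-3 line, where 4.16% of all genes rose, with a median log2 fold change of 0.32, where the median of all genes was 0.03. These were the fibrillar chains Col1a1 (44.0 ± 4.49 to 69.9 ± 9.56 TPM), Col3a1 (144 ± 17.2 to 198 ± 5.79 TPM) and Col5a2 (74.8 ± 4.27 to 93.5 ± 6.76 TPM). Col5a2 fell short of the threshold in 5 of 8 refits that each dropped 1 library. With no filter on low values Col3a1 and Col5a2 both missed it (adjusted p 0.0572 and 0.0766), which left Col1a1. None of the 5 was called in the exon 2 line by limma, nor had an unadjusted p under 0.05, and their median there was -0.07. The shares of all genes there were 0.0763% and 3.21%, so 0 of 5 is near the background.

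Sulf1 (chromosome 1, 12692197 to 12861192, plus strand) rose in the exon 2-3 cKO, from 25.6, 25.4, 23.3 and 24.8 TPM in the controls to 29.9, 33.0, 29.4 and 33.5 TPM. All 4 cKO libraries lay above all 4 controls, as they did for 9.24% of all genes. The means were 24.8 ± 1.06 and 31.4 ± 2.08 TPM (SD, n = 4 each), a ratio of 1.27, and the log2 fold change was 0.33 (SE 0.064, 95% interval 0.19 to 0.47, limma adjusted p 0.0175). It was 0.31 with an adjusted p of 0.0537 without cKO replicate 2, and 0.30 with 0.0464 without cKO replicate 4. No other row overlaps Sulf1. In the exon 2 line it held 37.6, 33.0, 33.1 and 32.0 TPM in controls and 31.3, 35.4, 36.6 and 32.6 TPM in cKO, and the groups overlapped (log2 fold change 0.0021, 95% interval -0.16 to 0.16, limma adjusted p 0.999). The difference of the 2 effects, 0.33 (95% interval 0.13 to 0.53), had a limma adjusted p of 0.0865 and so did not pass. After centring on the library median it was 0.28 with an adjusted p of 0.0448.

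Other genes that build, carry or edit heparan sulfate were not called in either line. Of 42 listed, 8 were among the rows used and 7 tested. The median log2 fold change of the 7 was 0.12 in the exon 2-3 line and -0.06 in the exon 2 line. An unadjusted p under 0.05 in limma was reached by 1 of them in the former, where 21.1% of all genes reached it. In the latter 0 of them reached it, where 3.21% of all genes did. The most abundant, the proteoglycan core Gpc1 and the kinase Fam20b, which acts on the linker of the sugar chain, had log2 fold changes of -0.08 and -0.04 in the exon 2-3 line (limma adjusted p 0.692 and 0.787). With 6.72% of all genes called in the exon 2-3 line, 0 of 7 is near the background, and Sulf1 was not tested against these genes.

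**Figure D2:**
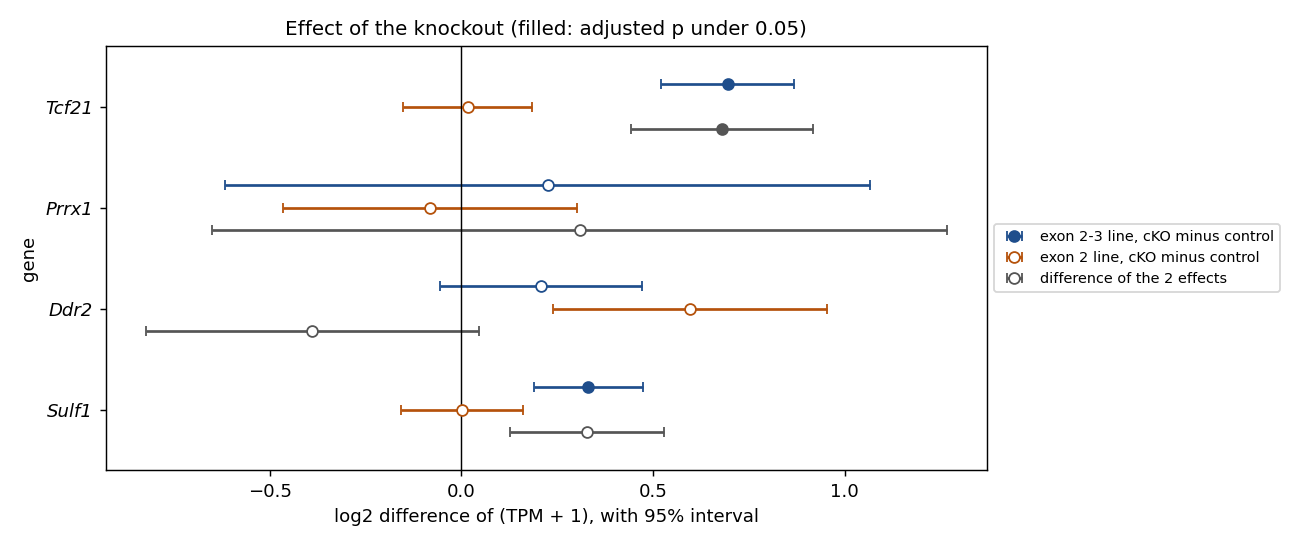
Log2 difference of (TPM + 1) with its 95% interval (horizontal axis) for the 4 genes tested (vertical axis), for cKO minus control in each line and for the difference of the 2 effects. Filled points passed an adjusted p of 0.05: Tcf21 and Sulf1 in the exon 2-3 line, at 0.70 and 0.33, and the difference for Tcf21, at 0.68, while the widest intervals belong to Prrx1.

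Of the 4 genes tested, 2 therefore rose in the exon 2-3 cKO, where 4.16% of all genes did. A share of all genes tested is no test of 4 genes picked with earlier results known. The median log2 fold change of the 4 was 0.28 in the exon 2-3 line and 0.0091 in the exon 2 line, and the medians of all genes were 0.03 and -0.01. The difference between lines was called for 1 of the 4, Tcf21, with 1.60% of all genes called in that direction.

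Of 28 listed genes of the epicardium, Tcf21 among them, 7 were tested, and all 7 had positive log2 fold changes in the exon 2-3 line. Other listed genes, such as Wt1, Tbx18 and Upk3b, were not among the rows used. The test called 5 of them higher, against 4.16% of all genes, and the median of the 7 was 0.51, against 0.03 for all genes. Leaving out Tcf21 itself, 4 of 6 rose, with a median of 0.46. Fn1, which encodes the matrix protein fibronectin, went from 334, 381, 355 and 393 TPM to 666, 609, 601 and 640 TPM (0.78 on the log2 scale with an SE of 0.062, limma adjusted p 0.000107). The proteoglycan gene Dcn went from 49.8, 46.2, 48.2 and 39.6 TPM to 74.9, 79.4, 69.8 and 60.5 TPM (0.62, SE 0.095, limma adjusted p 0.00635). For Fn1 and Dcn, and for Krt19 and Efemp1 below, all cKO libraries lay above all controls, as for 9.24% of all genes. The keratin gene Krt19 rose by 0.41 (limma adjusted p 0.0143) and the matrix gene Efemp1 by 0.37 (limma adjusted p 0.0359), although Efemp1 missed the threshold in 7 of 8 refits that each dropped 1 library. Lum, a proteoglycan gene like Dcn, was not called (0.51, limma adjusted p 0.127). With no filter on low values 3 of the 7 were called, Krt19 and Efemp1 being lost.

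None of these 7 genes was called by limma in the exon 2 line and 0 had an unadjusted p under 0.05, with a median of -0.02. Of all genes 0.0763% and 3.21% did so there, and 0 of 7 is near these shares. The effect was more positive in the exon 2-3 line for 4 of the 7 by the test of the difference, namely Tcf21, Fn1 (0.65, limma adjusted p 0.00131), Dcn (0.64, limma adjusted p 0.00505) and Krt19 (0.56, limma adjusted p 0.0215). By that test 1.60% of all genes were called with this sign, and Tcf21 is also among the members picked at the start. The 4 differences start from unequal controls, in both directions. Of the epicardial genes 4 of 7, and of the fibroblast and mesenchyme genes 15 of 19, were called lower in the exon 2-3 than in the exon 2 controls. That call was made for 38.1% of all genes. Dcn and Krt19 were called higher in the exon 2-3 controls (log2 difference 0.22 and 0.24, limma adjusted p 0.0319 and 0.0284). Fn1 held 366 ± 26.5 TPM in the exon 2-3 controls, 629 ± 29.7 TPM in their cKO and 635 ± 42.4 TPM in the exon 2 controls. The call of Krt19 was lost in 2 of 16 refits that each dropped 1 library, and with no filter.

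Of 45 fibroblast and mesenchyme genes, 19 were tested, 3 of which (Lum, Dcn and Efemp1) stand in the epicardial list too. Of these, 8 rose and 1 fell in the exon 2-3 cKO, where 4.16% and 2.56% of all genes did, and the median of the 19 was 0.20. The 8 include Col1a1, Col3a1 and Col5a2, already counted among the collagens, and Dcn and Efemp1. Ccn2, which encodes a secreted matrix-associated protein, went from 76.5, 102, 73.6 and 79.7 TPM to 128, 168, 168 and 160 TPM (0.91 on the log2 scale with an SE of 0.11, limma adjusted p 0.00212). Col18a1, a basement membrane collagen, went from 192 ± 23.5 to 273 ± 11.9 TPM (0.52, limma adjusted p 0.00685). For each of the 8 genes that rose, all cKO libraries lay above all controls, as for 9.24% of all genes. The gene that fell was Igfbp2, whose product binds insulin-like growth factors, from 84.8 ± 6.79 to 62.4 ± 3.97 TPM (-0.43, limma adjusted p 0.00746). Between 5 and 7 of the 19 were called higher when 1 library was left out, and 4 with no filter on low values. The tests of the difference for Ccn2 and Col18a1 (limma adjusted p 0.0341 and 0.0395) missed the threshold in 11 and 13 of 16 such refits. Limma called 0 of the 19 in the exon 2 line, 1 had an unadjusted p under 0.05, and the median was -0.05. Across all genes the shares there were 0.0763% and 3.21%, so these counts are near the background.

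**Figure D3:**
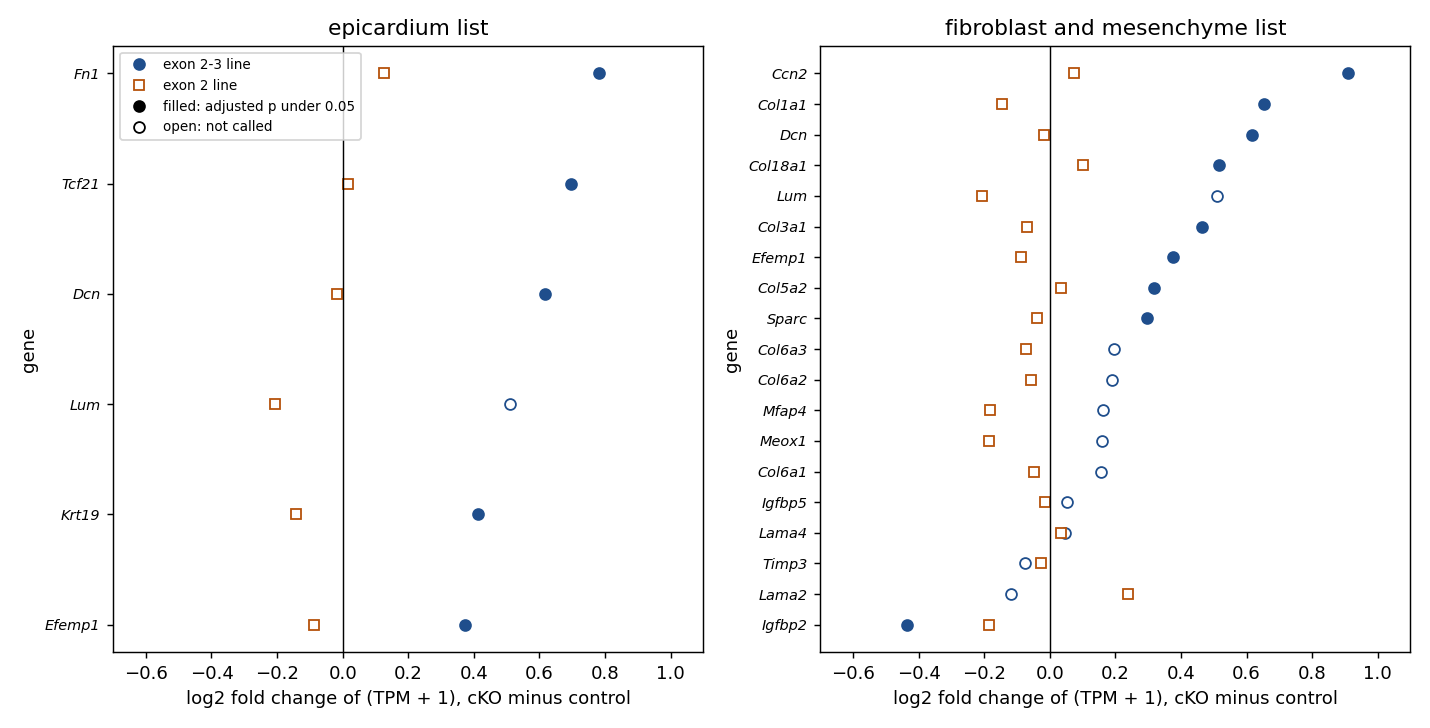
Log2 fold change of (TPM + 1), cKO minus control (horizontal axis), of 6 of the 7 tested epicardial genes (left) and 19 tested fibroblast and mesenchyme genes (right, gene names on the vertical axes), with circles for the exon 2-3 line, squares for the exon 2 line and filled symbols for an adjusted p under 0.05. In the exon 2-3 line 5 and 8 genes of the lists were called higher, up to 0.91 for Ccn2, and every square is open.

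Of 28 relatives and partners of the transcription factors, 4 were tested. The test was passed by 2, both lower in the exon 2-3 cKO, where 2.56% of all genes were called lower. Hand1, a bHLH factor of the developing ventricle, went from 65.5, 58.0, 55.6 and 71.5 TPM to 40.2, 36.3, 45.1 and 41.7 TPM (log2 fold change -0.60, limma adjusted p 0.00573). Tcf24, another bHLH gene, went from 2.53 ± 0.706 to 1.16 ± 0.238 TPM (-0.70, limma adjusted p 0.0269), a call lost in 5 of 8 such refits and with no filter. Tcf3, which encodes an E-protein that pairs with bHLH factors of this kind, had a log2 fold change of 0.05 (limma adjusted p 0.788). Rows on the other strand overlap Ccn2 (Gm15270, 2.08 TPM on average) and Hand1 (Gm32915, 3.73 TPM). Neither Hand1 nor Tcf24 was called in the exon 2 line, and no member of the list had an unadjusted p under 0.05 there in limma. Few genes did, with 0.0763% of all genes called and 3.21% at that unadjusted p.

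Markers of other cells were read beside these changes. The 6 cardiomyocyte markers summed to 17090 to 18570 TPM in the exon 2-3 controls and 16600 to 17590 TPM in its cKO. None was called, where 6.72% of all genes were. The 5 endothelial markers used summed to 252 to 327 TPM against 299 to 345 TPM, with none of the 3 tested called. At that share of all genes, 0 of 6 and 0 of 3 are near the background. Of 3 smooth muscle markers, Lmod1 rose, from 1.93 to 3.94 TPM on average (0.74, limma adjusted p 0.0220), where 4.16% of all genes rose. The more abundant Myocd went from 43.3 to 34.6 TPM on average (-0.32, limma adjusted p 0.0885). Smtn went from 45.5 to 45.8 TPM (0.01, limma adjusted p 0.971), and neither was called. The sum of the 3 went from between 82.9 and 100.3 TPM to between 70.7 and 91.1 TPM. The 6 macrophage and leukocyte markers summed to 98.7 to 104 TPM against 86.7 to 102 TPM. The part of these cells in the rise of Tcf21 and Sulf1 was not tested. Rows were held for 2 of 7 neural crest markers (4.18 to 9.02 TPM in the exon 2-3 line) and 2 of 9 liver markers (1.82 to 4.17 TPM).

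Mean levels of all 5 genes were lower in the exon 2-3 control ventricles than in those of the exon 2 line. The ratio of exon 2 over exon 2-3 control means was 5.46 for Prrx1, 4.10 for Twist2, 2.04 for Ddr2, 1.37 for Sulf1 and 1.18 for Tcf21. The libraries did not overlap for Prrx1, Twist2, Ddr2 and Sulf1, a separation that 32.6% of the genes tested showed in this direction, while those of Tcf21 did overlap. The log2 difference (exon 2-3 minus exon 2) was -1.86 for Prrx1 (SE 0.32, limma adjusted p 0.000180), -0.67 for Ddr2 (SE 0.15, adjusted p 0.00117), -0.44 for Sulf1 (SE 0.067, adjusted p 6.06e-05) and -0.23 for Tcf21 (SE 0.079, adjusted p 0.0215). That of Twist2 was -0.84 in the fit without a filter (limma adjusted p 0.0119). The call was not particular to these genes, since limma called 52.6% of the genes tested. Those called lower in the exon 2-3 controls were 38.1% of all genes tested. The median of all genes was -0.14, which became 0.04 after centring on the library median. Under that centring Tcf21 differed by -0.05 (adjusted p 0.603) and lost its call, as it did after quantile normalisation (-0.13, adjusted p 0.159) and with no filter (adjusted p 0.0507). The Tcf21 call was lost too without exon 2-3 control replicate 2 (-0.17, adjusted p 0.0803) and without exon 2 control replicate 1 (-0.17, adjusted p 0.0836). The other 3 tested genes kept their calls after median centring and quantile normalisation. Line and batch cannot be told apart here.

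By length-scaled level the order in both control groups began with Tcf21 and then Sulf1, and Twist2 came last. Tcf21 and Sulf1 did not overlap in either control group, although 38.2 TPM, the lowest Tcf21 value of the exon 2 controls, stood close to 37.6 TPM, the highest of Sulf1. Ddr2 and Prrx1 overlapped in the exon 2-3 controls (1.44 ± 0.247 and 1.15 ± 1.12 TPM), whereas in the exon 2 controls Prrx1 (6.26 ± 1.70 TPM) lay above Ddr2 (2.93 ± 0.845 TPM) in every library. The 5 markers of body wall, limb and foregut used summed to 1.53 to 2.61 TPM in the exon 2-3 controls and 2.63 to 3.77 TPM in the exon 2 controls. These ranges are low and nearly meet, and only 1 of the 5 passed the filter. Among single genes tested, 32.6% were lower in the exon 2-3 controls without overlap. The cardiomyocyte sum was 17090 to 18570 TPM against 12590 to 14680 TPM. Their part in the difference between control groups was not tested.

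Within groups some pairs of the 5 genes varied together between libraries more than others. After subtracting group means, Prrx1 correlated with Twist2 (Pearson's r 0.61, Spearman's rho 0.64) and with Ddr2 (0.58 and 0.71) over the 16 libraries. Without the 2 libraries farthest from the median of Prrx1, r was 0.61 and 0.55. Of the 10 pairs these were the highest, followed by Tcf21 with Sulf1 (0.41 and 0.44, and r = 0.25 without the 2 libraries farthest in Tcf21). Tcf21 and Prrx1 had an r of 0.043, and Twist2 and Ddr2 had 0.24. These are descriptions, since libraries of a line share a batch and Twist2 rests on low values.

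The genes most like each member over the 16 libraries, after subtracting each line's mean, were chosen by Pearson's r alone. The cKO difference within a line is part of this r, so genes most like Tcf21 and Sulf1 had to rise in the exon 2-3 cKO, and their rise is a description only. For Prrx1 they were Meox1 (r 0.91), a homeobox gene of mesoderm, Shroom1 (0.90) and Ndufa4l2 (0.89). Meox1 held 1.39, 3.95, 2.22 and 5.25 TPM in the exon 2-3 controls and 0.508, 5.86, 4.23 and 5.86 TPM in the cKO, and like Prrx1 it was highest in replicate 3 of both exon 2 groups, at 24.9 and 22.3 TPM. None of these 3 genes was called in either line by limma. For Tcf21 they were Zfp365 (0.95), Phlda3 (0.95) and Slc19a2 (0.94), which rose in the exon 2-3 cKO by 1.65, 1.13 and 0.93 on the log2 scale. For Sulf1 they were Tmcc3 (0.91), Abi3 (0.90) and Igf2bp1 (0.89), which rose there by 0.36, 0.33 and 0.28. For Ddr2 they were Rpl36-ps2 (0.82), 6030442K20Rik (0.80) and Adarb1 (0.75), none of them called. Ndufa4l2, Rpl36-ps2, 6030442K20Rik and Abi3 each overlap an expressed gene on the opposite strand, and Igf2bp1 a row on its own strand, which makes these values uncertain.

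**Figure D4:**
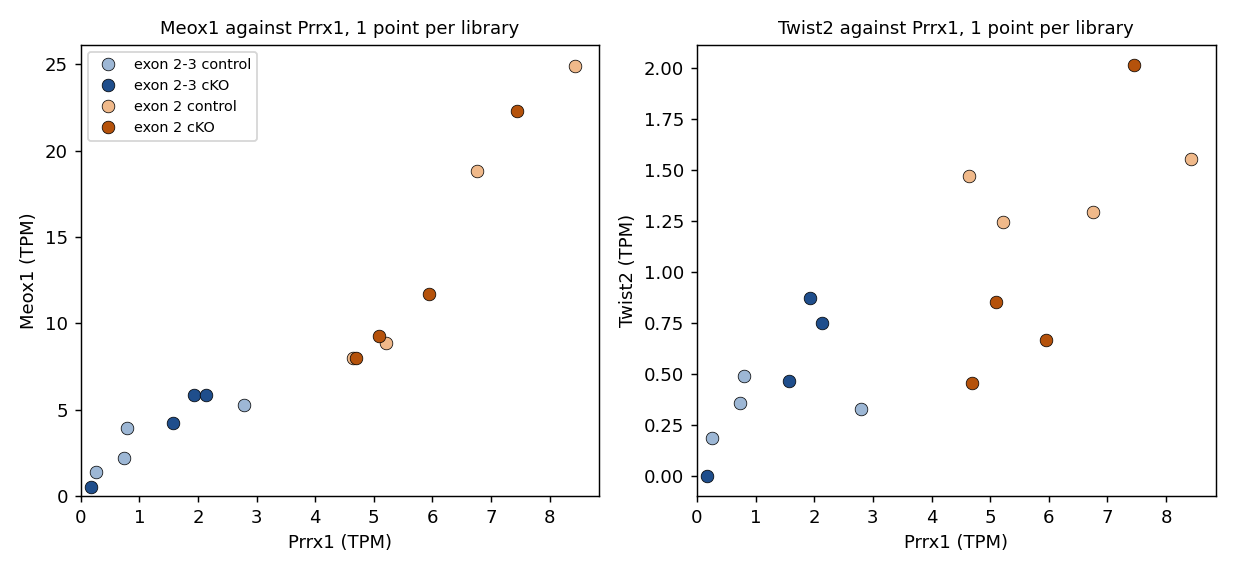
Meox1 (left) and Twist2 (right) in TPM (vertical axes) against Prrx1 in TPM (horizontal axis), 1 point per library, coloured by group. Meox1 climbs with Prrx1 from 0.508 TPM in the library with the least Prrx1 to 24.9 TPM in that with the most. Meox1 was chosen for its correlation with Prrx1 in these libraries, so its climb is a description only. Line means were not subtracted in this figure, so the climb includes the gap between the lines in both genes. Twist2 is more scattered and does not separate control from cKO.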

How the data were processed

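RNA-seq of 16 ventricle libraries was deposited by the authors as 1 table of TPM values. The submitters' processing notes name FastQC, Trim Galore 0.6.7, HISAT2 2.2.1, StringTie 2.2.1, featureCounts, DESeq2 and the build GRCm38, without saying which made the TPM. The labels disagree on mRNA selection or ribosomal RNA depletion, and their extraction text names another tissue. The rows held cover chromosomes 1, 10 and part of 11 and sum to 15.2 to 17.1% of a library's TPM. 1 incomplete row was left out, and Atf4 was not analysed here. Of 5921 rows, 5919 had the coordinates of RefSeq on GRCm38.p6.

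Groups and replicate numbers come from sample titles. The scale was log2(TPM + 1), on which changes of low genes come out too small, for 2620 genes with a mean of at least 1 TPM. The 8 libraries of a line were modelled apart from the other line in limma 3.58.1 and R 4.3.3 (intensity trend, two-sided, Benjamini-Hochberg over all genes tested, threshold 0.05). The difference of effects and the control contrast used all 16. The procedure was tested on simulated data. Named genes were the 5 members, list genes called in a line (up to 5 by p, otherwise the 2 most abundant) and the 3 genes most correlated with each member. Lum, Tcf3, Lmod1, Myocd, Smtn, 3110045C21Rik and Gm10824 were added after their values were seen. Values of 1 gene of the epicardial list are not reported here, though it counts among the genes tested. The members and lists were chosen with earlier results of these data known. The alternatives were a pseudocount of 0.1, no filter, a minimum of 5 TPM, 3 rescalings, 1 joint fit, no trend, the replicate block and leaving out each library.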

Additional observations from a re-analysis of the deposited data

Results flagged for a closer look

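The cKO effect on Tcf21 differed between the 2 lines by the test of the difference itself. The term was 0.68 on the log2 scale, with all 4 exon 2-3 cKO libraries above their controls and overlapping groups in the exon 2 line. It was called in all 16 refits that dropped 1 library (0.62 to 0.73, largest limma adjusted p 0.00844) and in the 8 other alternatives (0.62 to 0.69, largest adjusted p 0.0180). No library of the 5 genes stood apart from its group by Dixon's test in the 20 groups of 4 checked.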

How the results depend on the processing

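Tcf21 kept its direction and its call in the exon 2-3 line under every alternative run (log2 0.64 to 0.75 with 1 library left out, 0.65 to 0.71 otherwise). Sulf1 lost its call once, without cKO replicate 2. Of the members, 1 to 2 were called in that line with 1 library left out, and for the difference of effects 2 were called after centring on the library median. With a minimum of 5 TPM, 2 members were called between the controls, because Prrx1 and Ddr2 were not tested. The count of all genes called in the exon 2-3 line was 87 with no filter, 311 after quantile normalisation, 343 after median centring, 272 without hemoglobin genes and 70 to 190 with 1 library left out. For the exon 2 line the count was 4 in 1 fit over all libraries and 2 to 4 with 1 library left out (4 without control replicate 3). For the difference of effects it was 41 with no filter, 133 after quantile normalisation, 127 after median centring and 36 to 84 with 1 library left out. The cause of these shifts was not tested. With no filter 3 epicardial and 4 fibroblast genes were called higher, and with 1 library left out 4 to 5 and 5 to 7. With 1 library left out, 3 to 4 members were called between the controls.

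The labels give the groups the same replicate numbers, but same-numbered control and cKO libraries did not deviate together throughout (r between -0.0287 and 0.211). With the replicate block 149 and 2 genes were called in the exon 2-3 and exon 2 lines and 68 for the difference of effects. It called 2, 0 and 1 members, and among named genes only Col5a2 lost its call (adjusted p 0.0513). Prrx1 ranked its libraries alike by replicate number in control and cKO of each line, and the block lowered the SE of its exon 2-3 change from 0.38 to 0.19 with no call (0.23, adjusted p 0.532).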

Other observations

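The neighbours of the 2 genes that rose in the exon 2-3 line were looked up among the genes tested. On either side of Tcf21, Gm17794 (24787 bases away) and Rps12 (965040 bases away) had log2 fold changes of -0.10 and 0.12 there (limma adjusted p 0.604 and 0.218). On either side of Sulf1, Prex2 (1388514 bases away) and Slco5a1 (5357 bases away) had 0.09 and -0.11 (limma adjusted p 0.744 and 0.612). None of the 4 was called, where 6.72% of all genes were, and 0 of 4 is near that share. Beside Prrx1, Prrc2c, 504559 bases away, rose by 0.27 (limma adjusted p 0.0232), where 4.16% of all genes rose. Gorab, on the other side of Prrx1, was not called (0.18, limma adjusted p 0.380), nor were the neighbours of Twist2 and Ddr2.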
